A study of Mus musculus with 7 samples.

Results

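Icam1, Icam2, Vcam1, Pvr, Nectin2 and Cd48 encode surface proteins through which tissue cells are bound by NK cells, T cells and other leukocytes. These 6 genes, chosen by name for that role, were read from the UMI count tables of the pancreas, which list 33864 genes in at least 1 of 3 tables and 58473 cells in 7 libraries. A UMI is a molecular tag that marks 1 captured transcript. All 6 genes are listed in each table, and their levels are given here per mouse and cell class as CPM, in which the UMIs of the gene are scaled to the total UMIs of the class.

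The study asked how immune cells respond to reprogramming in the living pancreas. Each library is the pancreas of 1 mouse, and all mice were labelled C57BL/6 and were 2 months old. The WT group (n = 2) lacked the reprogramming alleles and drank doxycycline at 1 mg/ml for 7 days. The i4F group (n = 3, genotype i4F-B) drank the same doxycycline and carried the 4 reprogramming factors OSKM (Oct4, Sox2, Klf4 and Myc) in the Pparg locus, on 1 allele, under a promoter that doxycycline switches on through the rtTA transactivator, itself on 1 allele of Rosa26; these can be induced in any cell type. The caerulein group (n = 2) was wild type and received caerulein, a cholecystokinin analogue that injures acinar cells, at 100 µg/kg in 7 injections a day on 2 days. Its labels list no doxycycline, so that caerulein and the absence of doxycycline cannot be told apart in its comparison with WT. The rtTA transcript stood at 42.5 to 48.3 CPM in the i4F libraries and at 0.0585 to 0.951 CPM in the others.

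The libraries held 4327 to 15138 cells and 15469018 to 64784216 UMIs, with 1248.5 to 4247 UMIs in the median cell. At most 39 cell barcodes were shared by a pair of libraries. Cells were classed by the names the authors gave their clusters, which were made separately for each condition. The stellate, ductal, endothelial and macrophage classes carried the markers of their names in every mouse. The caerulein cluster named for B cells held B-cell markers at 94.2 and 109 CPM, against 2568 to 5707 CPM in WT and i4F, and was left out of the tests by class; the caerulein table has no NK or T cell cluster. That cluster stayed in the sums over all cells, where it held 10.3% and 10.4% of the Cd48 UMIs and 0.731% and 0.266% of the Nectin2 UMIs of the caerulein mice. The i4F mouse 3 stood apart from the other i4F mice. Its stellate cells lay mostly (91.2%) in the cluster Activated Pancreatic Stellate 2, which held 3.28% and 4.70% of those of i4F 1 and i4F 2, and for i4F against WT, values without this mouse are given where leaving it out changed a call. The library names fall in 2 series: WT 1 and the i4F mice share 1, and WT 2 and the caerulein mice the other. Each series holds 1 WT mouse. The calls for the 6 ligands did not hold in fits of i4F against WT 1 alone or caerulein against WT 2 alone. Calls over all genes also became rarer in these fits, in which the lone mouse is assumed to vary like the others.

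ICAM1 and ICAM2 are immunoglobulin-type ligands of the integrin LFA-1 on leukocytes, and VCAM1 is the ligand of the integrin VLA-4. PVR (CD155) and NECTIN2 (CD112) are bound by the activating receptor DNAM-1 (CD226) and by the inhibitory receptor TIGIT on NK and T cells, and CD96 also binds PVR. CD48 is a GPI-anchored protein of blood cells that binds CD2 and 2B4 (CD244). Endothelial cells use ICAM1, ICAM2 and VCAM1 to hold leukocytes, and inflammatory cytokines acting through NF-kB are known to induce ICAM1 and VCAM1.

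On the GRCm38.p6 build, RefSeq places Icam1 at chr9:21015940-21028814, Icam2 at chr11:106377656-106388139, Vcam1 at chr3:116110020-116129688, Nectin2 at chr7:19716644-19749573, Pvr at chr7:19903578-19921143 and Cd48 at chr1:171681245-171705258. Nectin2 and Pvr thus lie on the same chromosome, with other genes between them. The 250 bases before the transcription start are shown for Nectin2, which rose in stellate cells in both treatments, and for Icam1, which did not, because NF-kB target genes are described with them below. Capitals mark matches, on either strand, to 4 motifs: NF-kB (GGNNNTTCC), STAT (TTCNNNGAA), AP-1 (TGANTCA) and ETS (GGAAGT).
Nectin2 promoter, chr7:19749574-19749823, minus strand: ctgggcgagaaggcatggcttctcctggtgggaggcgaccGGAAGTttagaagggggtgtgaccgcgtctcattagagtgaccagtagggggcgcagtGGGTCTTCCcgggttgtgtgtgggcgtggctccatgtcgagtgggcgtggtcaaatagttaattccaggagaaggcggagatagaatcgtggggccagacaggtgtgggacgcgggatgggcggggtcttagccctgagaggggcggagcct
Icam1 promoter, chr9:21015690-21015939, plus strand: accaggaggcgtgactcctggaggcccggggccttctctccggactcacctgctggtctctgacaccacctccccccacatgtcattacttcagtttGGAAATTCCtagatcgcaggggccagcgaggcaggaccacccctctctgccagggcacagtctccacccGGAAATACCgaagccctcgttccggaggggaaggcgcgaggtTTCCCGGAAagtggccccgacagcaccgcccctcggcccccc
The Nectin2 window held 1 NF-kB match beginning 152 bases before the start and 1 ETS match at 210 bases. The Icam1 window held an NF-kB match at 153 bases that reads on both strands, another at 84 bases on the minus strand and a STAT match at 42 bases that reads on both strands. Of 32544 promoter windows of the same length in the RefSeq table, 15.7% held an NF-kB match, 7.04% a STAT match, 6.73% an AP-1 match and 19.8% an ETS match, and a match of letters says nothing of binding.

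The 6 ligands divided the pancreas between them. By median level over mice, Nectin2 and Pvr were highest in ductal cells, Icam2 and Vcam1 in endothelial cells, and Cd48 in macrophages, whereas Icam1 was spread over ductal, vascular and myeloid cells. These levels describe clusters that were made from all genes and carry no test. CPM is not corrected for gene length, so levels are compared between classes for 1 gene and not between genes.

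**Figure D1:**
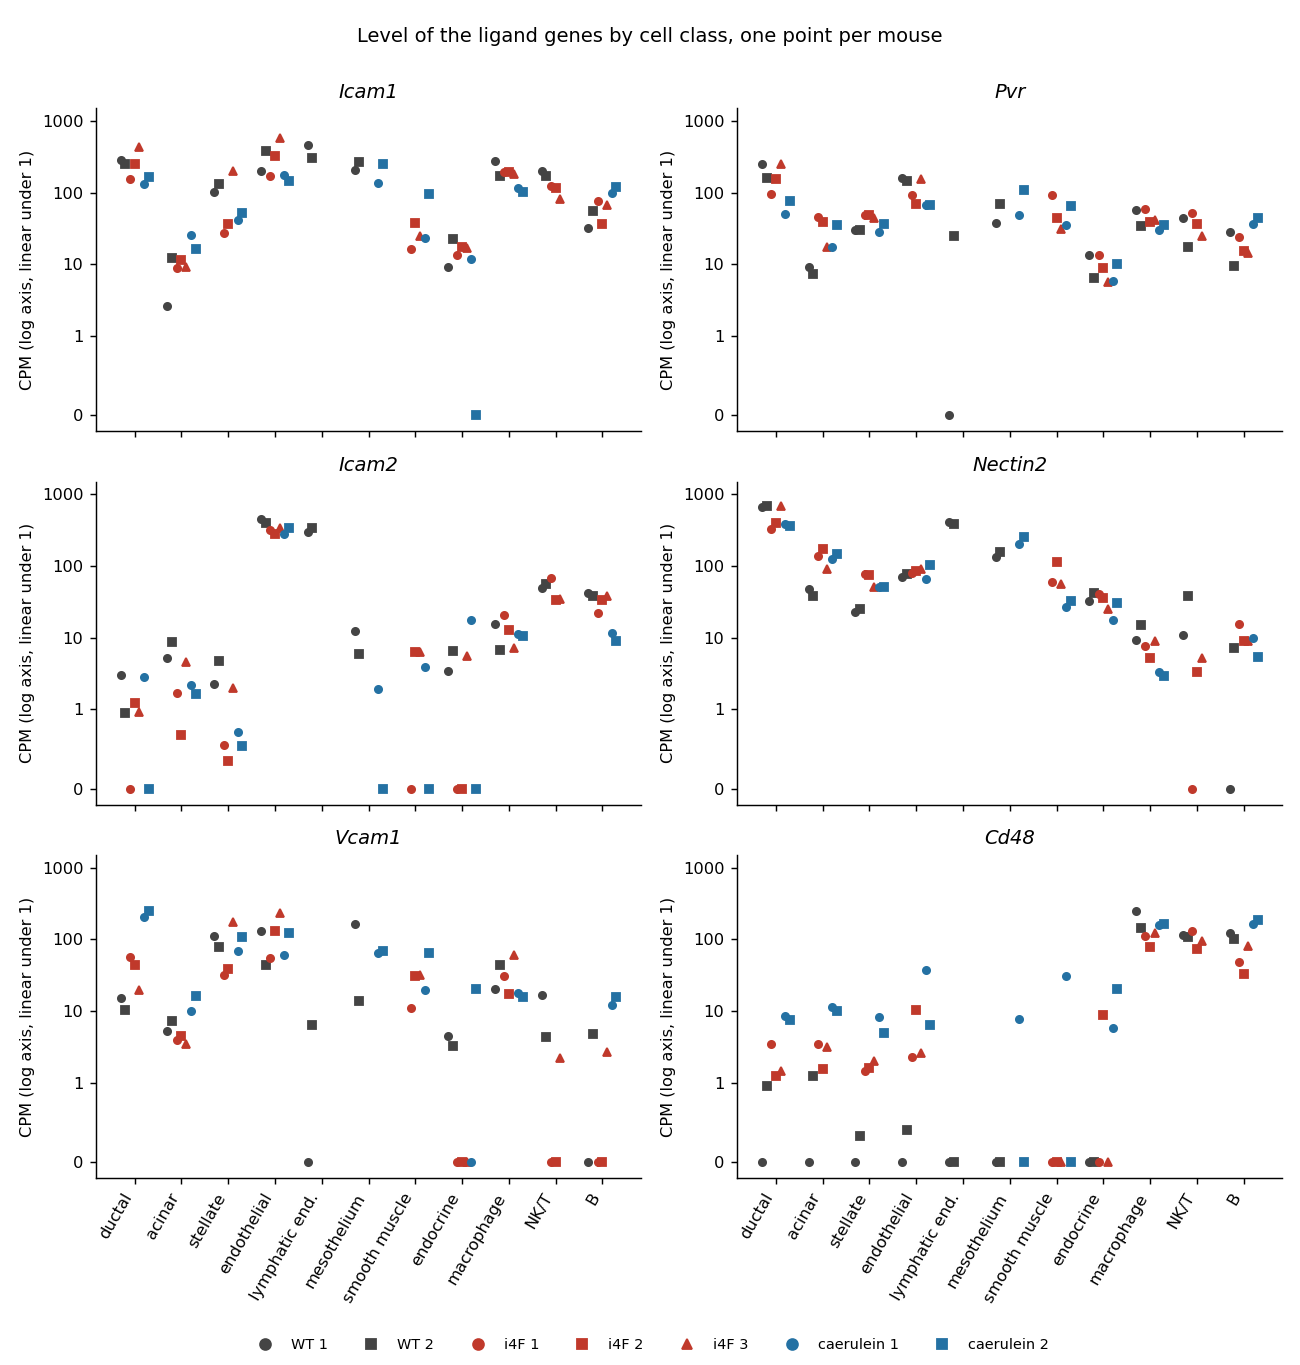
CPM of each gene (vertical axis, logarithmic above 1 CPM and linear below) in 11 cell classes (horizontal axis), 1 point per mouse with at least 20 cells of the class; colour gives the group and shape the mouse. Icam2 lies between 277 and 448 CPM in endothelial cells and at 67.0 CPM at most in the classes other than endothelial and lymphatic endothelial, and Cd48 lies between 33.1 and 249 CPM in the 3 immune classes.

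Icam1 had a median of 248 CPM in ductal cells (134 to 432 CPM, n = 7), 199 CPM in endothelial cells (146 to 580), 179 CPM in macrophages (100 to 275) and 124 CPM in the NK/T class (80.3 to 197, n = 5). It was lower in stellate cells, with a median of 51.8 CPM, and in acinar cells, with 11.4 CPM. In WT, the lymphatic endothelial cluster held 461 and 302 CPM. The ranges of neighbouring classes overlapped at every step of the order for Icam1, Vcam1 and Pvr.

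Icam2, which is carried constitutively by endothelium and by leukocytes, had a median of 334 CPM in endothelial cells (277 to 448, n = 7) and 316 CPM in WT lymphatic endothelium. The next class, NK/T, lay at 49.3 CPM and its range (33.0 to 67.0 CPM) did not reach that of the endothelial classes. Ductal and stellate cells had medians of 0.963 and 0.717 CPM. Over 47 sums of mice and classes, the genes whose log2(CPM + 10) followed Icam2 most closely were Pecam1 (Pearson r = 0.965), S1pr1 (0.952) and 4833403J16Rik (0.935). Pecam1 encodes the endothelial adhesion protein CD31. The sums share mice and clustering, and these correlations are a description.

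Vcam1 had its highest median in endothelial cells, at 124 CPM (43.1 to 234), followed by stellate cells at 76.8 CPM (32.0 to 175), mesothelium at 65.9 CPM (13.7 to 163, n = 4) and ductal cells at 44.4 CPM (10.3 to 251). The order differed between groups. In WT the mean was 94.5 ± 25.0 CPM in stellate cells and 86.7 ± 61.7 CPM in endothelial cells (SD, n = 2), and in caerulein it was 229 ± 31.5 CPM in ductal cells and 92.1 ± 44.8 CPM in endothelial cells (SD, n = 2). The endothelial level was unequally divided in WT. The cluster Endothelial 2, which held 17.9% and 8.57% of the endothelial UMIs of WT 1 and WT 2, had 603 and 384 CPM, and Endothelial 1 had 27.3 and 11.1 CPM. Endothelial 2 also held acinar markers at 8450 and 6120 CPM, against 931 and 1310 CPM in Endothelial 1.

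Nectin2 in ductal cells had a median of 403 CPM (328 to 679), and Pvr there had a median of 155 CPM (50.8 to 252). Nectin2 was also high in WT lymphatic endothelium (410 and 390 CPM) and in mesothelium (median 181 CPM, n = 4), and low in macrophages (7.67 CPM), the B class (8.82 CPM) and the NK/T class (5.15 CPM). Pvr was second in endothelial cells, at 93.0 CPM (66.7 to 159), and macrophages had 39.5 CPM. The closest patterns to Nectin2 were Tnfrsf12a (r = 0.914), Cyb561 (0.910) and Myo1d (0.902); those to Pvr were Csnk1e (0.863), Midn (0.862) and Myl12a (0.859).

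Cd48 had a median of 144 CPM in macrophages (77.8 to 249), 107 CPM in the NK/T class and 100.1 CPM in the B class, whose caerulein values come from the cluster that lacked B-cell markers. No other class had a median above 3.12 CPM. Its closest patterns were Vav1 (r = 0.978), Was (0.976) and Fermt3 (0.973), 3 genes of blood cells. For Icam1 they were Casp4 (0.874), Bcl3 (0.866) and Cic (0.849), and for Vcam1 Pea15a (0.852), Leprot (0.836) and Rhoc (0.824).

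The classes differed in size between mice, and the UMIs of a gene came from different cells in each group. In WT 1 and WT 2, ductal cells held 89.1% and 80.7% of Nectin2 UMIs and 71.8% and 47.5% of Pvr UMIs. In i4F 1 and i4F 2, they held 10.6% and 11.1% of Nectin2 and 4.43% and 7.00% of Pvr, and stellate with smooth muscle cells held 75.6% and 59.2% of Nectin2 and 68.3% and 63.1% of Pvr. The i4F mouse 3 lay nearer to WT, with 70.3% of Nectin2 and 51.6% of Pvr in ductal cells. Ductal cells supplied 35.3% and 20.3% of all UMIs in WT and 2.15% to 13.4% in i4F. Stellate with smooth muscle cells supplied 31.7% and 44.2% of all UMIs in WT and 71.9%, 61.8% and 27.2% in i4F 1, i4F 2 and i4F 3.

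**Figure D2:**
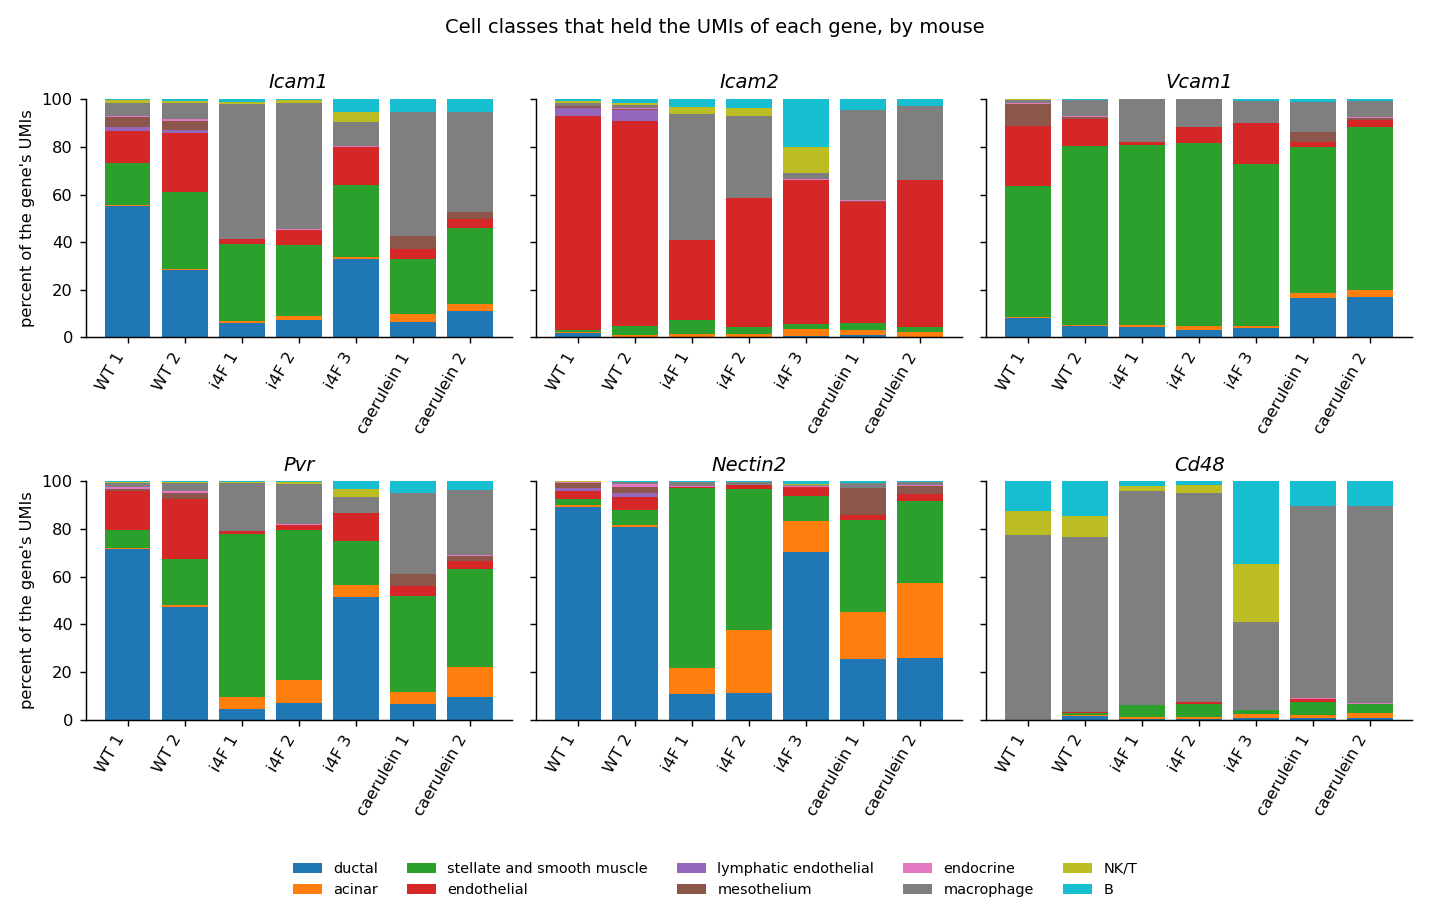
Percent of each gene's UMIs (vertical axis) by the cell class that held them (colours), with 1 bar per mouse. Nectin2 lies mostly in ductal cells in WT and i4F 3, and Pvr in WT 1 and i4F 3, with 47.5% of Pvr there in WT 2. In i4F 1 and i4F 2 both lie mostly in stellate with smooth muscle cells, which held 71.9% and 61.8% of all UMIs. The macrophage share of Icam1 is 5.77% and 6.75% in WT and 41.8% to 56.7% in i4F 1, i4F 2 and caerulein.

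The source of Icam1 moved to macrophages. They held 5.77% and 6.75% of its UMIs in WT, 56.7% and 53.0% in i4F 1 and i4F 2, 10.2% in i4F 3, and 51.8% and 41.8% in caerulein. Of all UMIs, macrophages held 3.87% and 7.15% in WT, 17.7%, 20.7% and 10.0% in i4F, and 34.1% and 30.2% in caerulein. Cd48 lay in macrophages by 73.6% to 89.9% in every mouse but i4F 3, where macrophages held 36.6%, the B class 34.7% and the NK/T class 24.5%. Vcam1 stayed mainly in stellate with smooth muscle cells, at 55.0% to 76.9% in the 7 mice. These cells held 27.2% to 71.9% of all UMIs.

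The question of the first comparison was whether reprogramming factors changed the ligands within a cell class. UMIs were summed per mouse and class and tested with edgeR's quasi-likelihood test over all genes, with Benjamini-Hochberg adjustment. Nectin2, Pvr and Cd48 were higher in i4F than in WT in stellate cells, and edgeR called no other pair of gene and class. Cd48 there was at or near 0 in WT and passed the filter on low counts only through the treated mice, so that its call had to be a higher level. These 3 calls were of 48 pairs tested in 9 classes, 2 of which (non-immune cells and all cells) contain the others, where 3.11% of all gene-by-class pairs were called; in stellate cells 12.0% of all genes were called higher. Outside stellate cells, edgeR called 0 of 42 pairs, 11 had an unadjusted p under 0.05, and DESeq2 called 6 (Nectin2 and Pvr in acinar cells, Vcam1 in ductal cells, Cd48 and Icam2 over all cells and Cd48 in non-immune cells). Of all pairs outside stellate cells edgeR called 0.151%, 24.7% had such a p and DESeq2 called 11.1%. The 3 calls did not hold with WT 1 or WT 2 left out, where calls over all genes also became rarer. Without i4F 2 none of the 3 was left and without i4F 1 there was 1, where 0.0454% and 0.489% of all gene-by-class pairs were called. With the library series as a term there were 0, where 0.115% of all pairs were called. The log2 fold change of Nectin2 in stellate cells, 1.65 in the fit reported, was then 1.80, and that of Pvr, 0.81, was 0.90.

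Nectin2 in stellate cells stood at 23.0 and 25.1 CPM in the WT mice, at 78.3, 74.6 and 51.5 CPM in the i4F mice, and at 50.8 and 51.5 CPM in the caerulein mice. All treated mice lay above both WT mice. The difference between i4F and WT was a log2 fold change of 1.65 ± 0.24 (SE; adjusted p = 0.0174 by edgeR), a 3.15-fold higher level.

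Pvr in stellate cells stood at 30.0 and 30.1 CPM in WT and at 49.3, 48.7 and 44.0 CPM in i4F, with no overlap. It was higher in i4F by 0.81 ± 0.18 on the log2 scale (edgeR adjusted p = 0.0285). The caerulein mice, at 28.3 and 36.4 CPM, lay on both sides of WT. Without TMM, the scaling that edgeR applies to the totals, the adjusted p for Pvr was 0.0532, and leaving the scaling out moved the median log2 fold change of all stellate genes by -0.16.

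**Figure D3:**
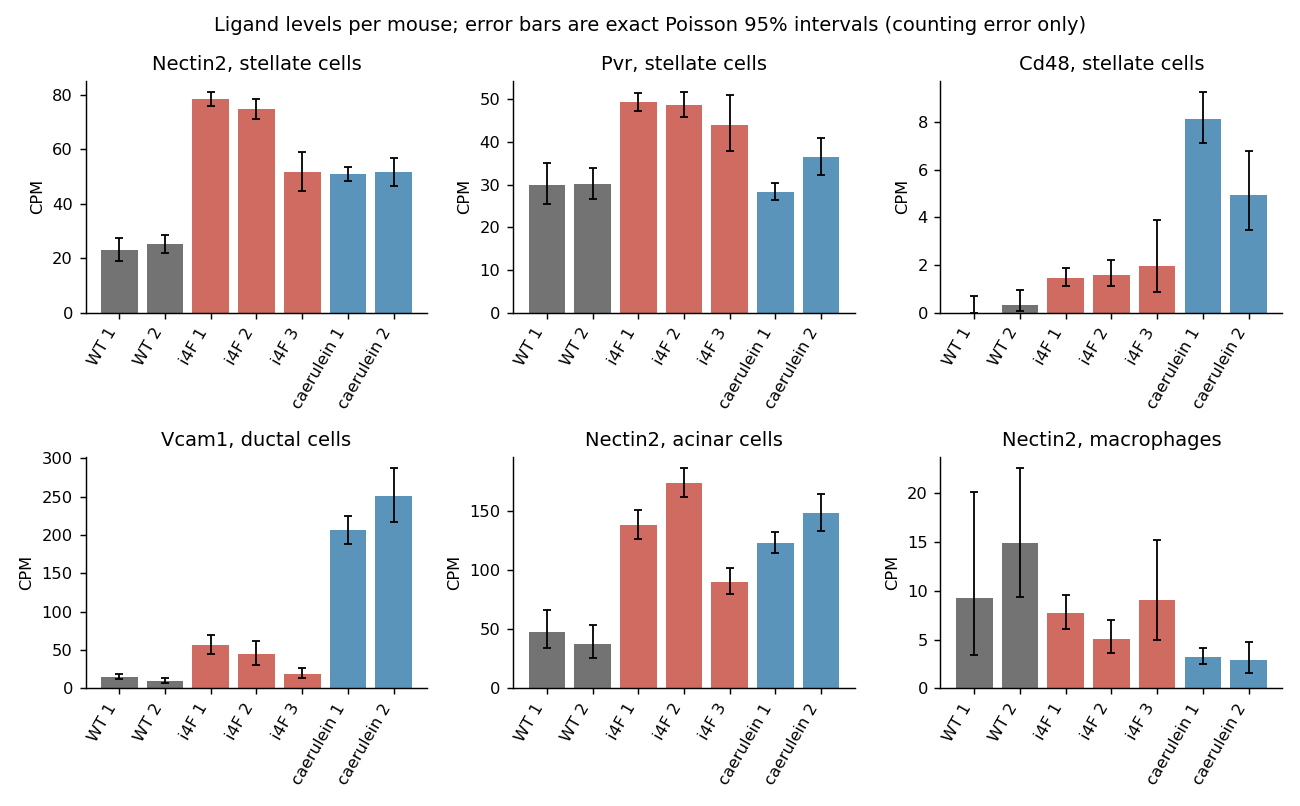
CPM per mouse (vertical axes, from 0) for 6 pairs of gene and class, with WT in grey, i4F in red and caerulein in blue; error bars are exact Poisson 95% intervals and cover counting error only. Nectin2 in stellate cells is at 23.0 and 25.1 CPM in WT and at 50.8 to 78.3 CPM in the 5 treated mice, and Vcam1 in ductal cells is at 206 and 251 CPM in caerulein and at 10.3 to 56.3 CPM in the other 5 mice.

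The authors divided the stellate cells into quiescent and activated clusters, and these names did not cover the same shares in each group. Quiescent clusters held 90.0% of the stellate cells of WT 1 and 93.6% of those of WT 2, while every i4F and caerulein stellate cell lay in an activated cluster. Nectin2 had 19.7 and 29.0 CPM in Quiescent Pancreatic Stellate 1, and 66.2 CPM (26 UMIs) and 23.0 CPM (10 UMIs) in the small WT activated cluster. In Activated Pancreatic Stellate 1 it had 77.5, 74.2 and 86.0 CPM in the i4F mice and 50.8 and 51.5 CPM in the caerulein mice. For i4F 3 this cluster held only 113 cells, 8.83% of its stellate cells and 25% of their UMIs. All stellate cells of i4F 3 together had 51.5 CPM of Nectin2. Pvr ran from 15.5 CPM to 80.7 CPM among the WT clusters, the latter in Quiescent Pancreatic Stellate 2 of WT 2. The part of the cluster mix in the stellate differences was not tested.

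**Figure D4:**
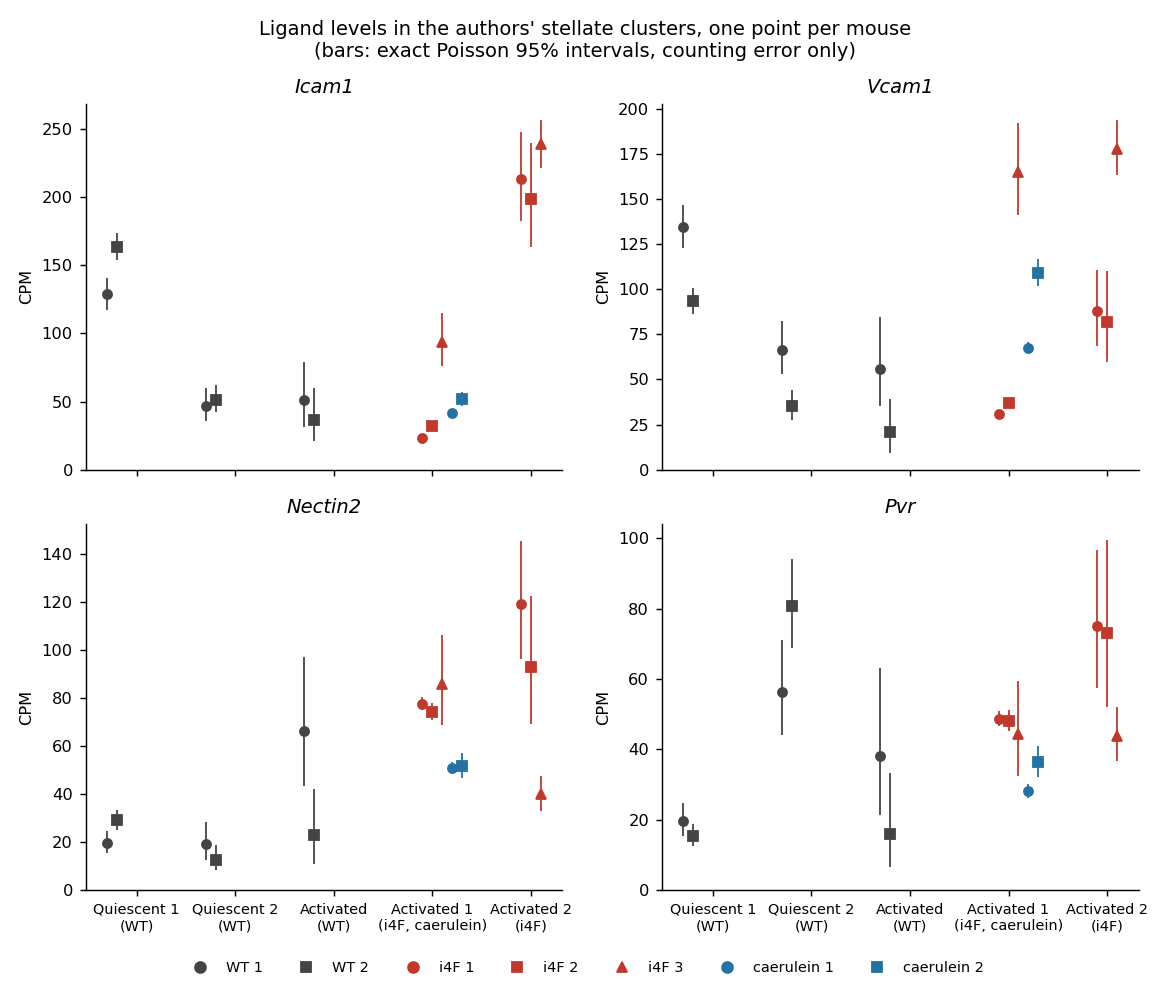
CPM of 4 genes (vertical axes) in the stellate clusters named by the authors (horizontal axis), 1 point per mouse with an exact Poisson 95% interval for counting error. Icam1 is at 199 to 239 CPM in the cluster Activated 2 of i4F and at 23.4 to 93.9 CPM in Activated 1.

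Cd48 in stellate cells was rare. It had 0 UMIs in WT 1 and 3 UMIs (0.329 CPM) in WT 2, against 63, 37 and 8 UMIs (1.45, 1.60 and 1.98 CPM) in i4F and 227 and 37 UMIs (8.13 and 4.93 CPM) in caerulein. Pooled over mice, the ratio of i4F to WT was 7.39, with a counting interval of 2.46 to 36.4, and that of caerulein to WT was 35.9 (12.2 to 175). The fitted log2 fold change for i4F was 3.09, and it was 2.34 without WT 1; without WT 2, which leaves a WT level of 0, it was 7.92 and depends on the prior count. For caerulein it was 5.13, and 4.38 and 9.96 without these mice. edgeR called both (adjusted p = 0.036 and 0.0137). Markers of macrophages moved with it: all 9 of them, summed, had 14.4 and 39.9 CPM in WT stellate cells, 200.4 to 407 CPM in i4F and 943 and 1460 CPM in caerulein, with Adgre1 and Fcgr1 at 0 in WT 1. Per 1000 macrophage-marker UMIs, the stellate cells of i4F 1, i4F 2 and i4F 3 held 3.57, 5.07 and 9.88 Cd48 UMIs, and their macrophages 3.54, 3.44 and 5.84. In caerulein the stellate cells held 5.57 and 5.23, and the macrophages 5.02 and 5.56. In WT the stellate cells held 0 and 8.24, the latter from 3 Cd48 UMIs, and the macrophages 13.2 and 6.65. The part of macrophage RNA in the stellate Cd48 values was not tested. Without cells that carried a UMI of Ptprc (CD45), the log2 fold change for i4F was 4.23 (edgeR adjusted p = 0.0233). Cells with no captured Ptprc UMI stay in that fit whatever other RNA they hold, so it was no test of that part. Its WT level rests on at most the 3 Cd48 UMIs given above.

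Icam1 and Vcam1 in stellate cells depended on i4F 3. Icam1 stood at 103 and 132 CPM in WT, and at 26.9, 35.9 and 202 CPM in i4F. Vcam1 stood at 112 and 76.8 CPM in WT, and at 32.0, 37.9 and 175 CPM in i4F. For both genes i4F 1 and i4F 2 lay below WT and i4F 3 above it, and the edgeR log2 fold changes were -0.26 ± 0.82 (adjusted p = 0.834) and -0.03 ± 0.73 (adjusted p = 0.976). Without i4F 3 they were -1.79 ± 0.23 (adjusted p = 0.00127) and -1.28 ± 0.23 (adjusted p = 0.00442). In the fits without this mouse edgeR called 34.8% of all gene-by-class pairs and 32.4% of those outside stellate cells, so a larger share within them. The stellate cells of this mouse also held more acinar markers, at 2112 CPM against 24.3 and 84.2 CPM in i4F 1 and i4F 2 and 812 and 951 CPM in WT, and lymphatic endothelial markers at 830 CPM against 1.73 to 30.2 CPM in the other 6 mice. The part of these markers in the Icam1 and Vcam1 values was not tested.

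**Figure D5:**
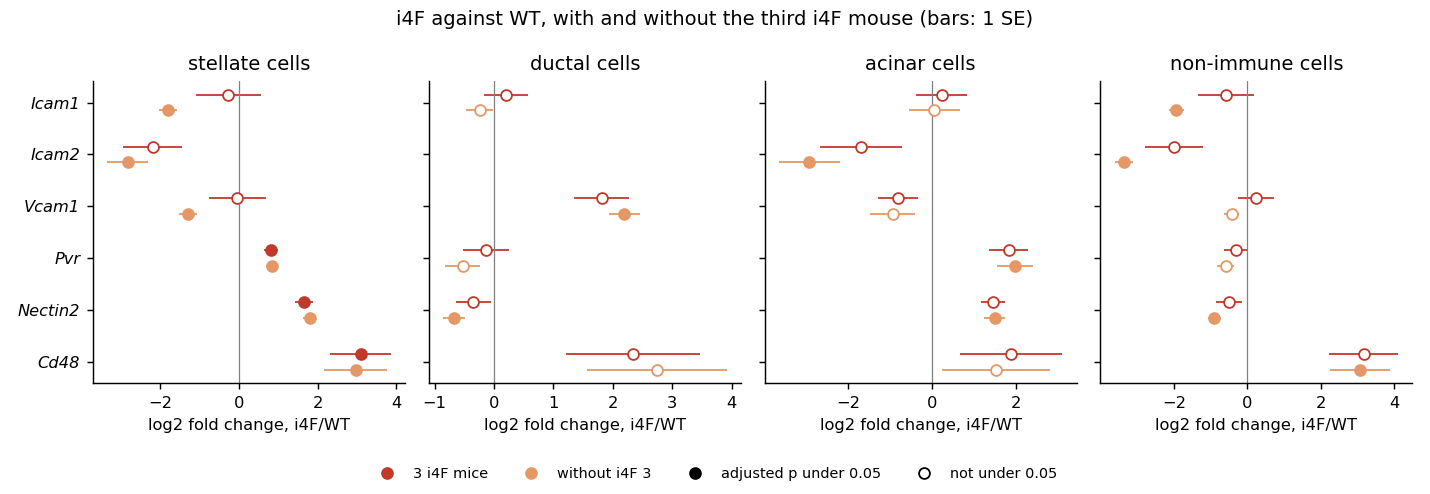
log2 fold change of i4F against WT (horizontal axis) with 1 SE for the 6 genes in 4 sets of cells, for all 3 i4F mice and without i4F 3; filled points passed an adjusted p of 0.05 by edgeR. In stellate cells Nectin2, Pvr and Cd48 are filled in both fits, and Icam1, Icam2 and Vcam1 only without i4F 3. In the fits without i4F 3, 34.8% of all gene-by-class pairs passed, and 32.4% of those outside stellate cells.

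In all, 20 of 46 pairs were called without i4F 3, among them the 3 stellate calls, where 34.8% of all gene-by-class pairs were called. Nectin2 in acinar cells, at 48.2 and 37.9 CPM in WT and 139, 174 and 90.4 CPM in i4F, was higher in every i4F mouse, with a log2 fold change of 1.46 ± 0.29 (adjusted p = 0.081) with all mice and 1.49 ± 0.25 (adjusted p = 0.00163) without i4F 3. Pvr in acinar cells was at 9.12 and 7.34 CPM in WT (7 and 6 UMIs) and at 45.0, 38.5 and 17.7 CPM in i4F, with a difference of 1.82 ± 0.46 (adjusted p = 0.101) and 1.98 ± 0.43 (adjusted p = 0.00699). The acinar class changed in other ways. The cluster Acinar 2 held 98.1% and 92.4% of the acinar cells of i4F 1 and i4F 2, and Acinar 1 held 97.2% of those of i4F 3. The acinar markers of the class summed to 75299 and 96636 CPM in WT and to 6502, 11501 and 46153 CPM in i4F. Its ductal markers summed to 2640 and 1795 CPM in WT and to 11298, 9283 and 3964 CPM in i4F, and the part of these in the ligand values was not tested. Icam2 in acinar cells was also called without i4F 3 (-2.93 ± 0.72, adjusted p = 0.0123; with all mice -1.70 ± 0.98, adjusted p = 0.303), as it was in stellate cells (-2.82 ± 0.52, adjusted p = 0.00501; with all mice -2.18 ± 0.75, adjusted p = 0.0744). Endothelial markers lay lower in the same sums, at 125 and 135 CPM in WT and 19.3, 19.9 and 58.9 CPM in i4F for acinar cells, and at 176 and 210 CPM and 29.3, 35.8 and 111 CPM for stellate cells, and their part in the Icam2 values was not tested.

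In ductal cells Nectin2 stood at 656 and 677 CPM in WT and at 328, 403 and 679 CPM in i4F, and Pvr at 252 and 160 CPM and at 96.1, 155 and 249.9 CPM, so that i4F 3 lay at the top of the i4F mice in both. Nectin2 there differed by -0.35 ± 0.30 (adjusted p = 0.557) with all mice and by -0.68 ± 0.18 (adjusted p = 0.0273) without i4F 3. Vcam1 in ductal cells was at 15.2 and 10.3 CPM in WT and at 56.3, 44.4 and 19.3 CPM in i4F. It lay above WT in each i4F mouse, by 1.81 ± 0.46 (adjusted p = 0.192) with all mice and by 2.19 ± 0.26 (adjusted p = 0.00112) without i4F 3. Stellate markers in ductal cells were at 1000 and 1099 CPM in WT and at 4358, 1962 and 467 CPM in i4F, and their part in the Vcam1 values was not tested.

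In endothelial cells edgeR called 0 of the 5 genes tested between i4F and WT, 0 had an unadjusted p under 0.05 and DESeq2 called 0, where edgeR called 0.810% of all endothelial genes. Without i4F 3, Pvr was called (-0.87 ± 0.24, adjusted p = 0.045), against -0.41 ± 0.34 (adjusted p = 0.568) with all mice. Icam2 stood at 448 and 391 CPM in WT and at 315, 277 and 334 CPM in i4F, and Icam1 at 199 and 377 CPM and at 170.2, 324 and 580 CPM. Markers of lymphatic endothelium summed to 727 to 2114 CPM in i4F and to 91.6 and 84.1 CPM in WT, where lymphatic cells form a cluster of their own. Among immune cells, Cd48 in macrophages was at 249 and 144 CPM in WT and at 111, 77.8 and 123 CPM in i4F (-0.81 ± 0.29, adjusted p = 0.193), and Icam1 in the NK/T class at 197 and 171 CPM and at 124, 116 and 80.3 CPM (-0.72 ± 0.29, adjusted p = 0.294).

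The study measured Icam1 and Pvr RNA in pancreas tissue by RT-qPCR, and their proteins by flow cytometry on cells without CD45. It reported both RNAs and both proteins as higher in i4F than in WT. Here UMIs were summed over the clusters named for non-immune cells, which is RNA in cells chosen by cluster name and neither of those measures. Icam1 in non-immune cells stood at 183 and 185 CPM in WT and at 30.6, 43.6 and 214 CPM in i4F. Pvr stood at 129 and 73.2 CPM in WT and at 50.8, 50.3 and 84.9 CPM in i4F. Neither was called: the log2 fold changes of i4F against WT were -0.58 ± 0.76 (adjusted p = 0.599) and -0.31 ± 0.32 (adjusted p = 0.495). edgeR called 0 of the 6 genes, against 0.00% of all 17849 genes; 5606 genes had an unadjusted p under 0.05, 2 of the 6 among them, and DESeq2 called 2122 genes higher and 988 lower, 1 of the 6 (Cd48) among them. Without i4F 3, Icam1 was lower, by -1.93 ± 0.20 (adjusted p = 0.00056), and Pvr was not called (adjusted p = 0.0735). In the fits without i4F 3, 34.8% of all gene-by-class pairs were called. Icam2 (-3.36 ± 0.26, adjusted p = 2.93e-04), Nectin2 (-0.90 ± 0.18, adjusted p = 0.00608) and Cd48 (3.06 ± 0.81, adjusted p = 0.0178) were also called without this mouse. Cd48 in non-immune cells was at 0 and 0.487 CPM in WT (9 UMIs). It passed the filter on low counts only through the treated mice, so that its call had to be a higher level. Over all cells, a sum nearer to the tissue of the RT-qPCR but still of single-cell suspensions, neither Icam1 nor Pvr was called between i4F and WT. Their log2 fold changes there were -0.44 ± 0.45 (edgeR adjusted p = 0.502) and -0.40 ± 0.26 (edgeR adjusted p = 0.293), where 0.00% of all genes were called. With more or fewer cells of a class in the sum, these values move, and a sum over classes cannot tell fewer cells of a type from less RNA per cell.

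Caerulein was compared with the same WT mice to ask which differences follow acinar injury. Vcam1 was 20.1-fold higher in ductal cells, Nectin2 and Cd48 were higher in stellate cells, and Nectin2 was lower in macrophages. With Cd48 higher and Nectin2 lower over all cells, 6 of 40 pairs in 7 classes were called, against 6.00% of all gene-by-class pairs. These calls did not hold with any 1 of the 4 mice left out, where calls over all genes also became rarer. With the library series as a term 0 of the 6 were left, where 0.201% of all gene-by-class pairs were called. The log2 fold change of Vcam1 in ductal cells, 4.33 in the fit reported, was 4.10 to 4.59 with a mouse left out and 4.59 with the series as a term. The 2 comparisons share the WT mice.

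Vcam1 in ductal cells stood at 15.2 and 10.3 CPM in WT and at 206 and 251 CPM in caerulein. The groups did not overlap, and the log2 fold change was 4.33 ± 0.52 (adjusted p = 0.0121 by edgeR), where 2.88% of all ductal genes were called higher. The caerulein values in ductal cells lay above those in the stellate cells of the same mice (67.6 and 109 CPM) and in their macrophages (17.6 and 15.9 CPM). Stellate markers in ductal cells summed to 2312 and 2315 CPM in caerulein, against the WT values given above. A UMI of Vcam1 was found in 3.85% and 4.51% of WT ductal cells and in 41.0% and 34.5% of caerulein ductal cells, and after thinning each cell to 500 UMIs in 0.575%, 0.542%, 7.56% and 9.98%. B cells, which should lack the gene, had 0% (at most 7.55% by the exact 95% interval) and 1.80% in WT, with 2886 and 2066 UMIs in the median cell against 5396 and 4624 in ductal cells. In caerulein, endocrine cells had 0% (at most 6.27%) and 1.49%, and the cluster named for B cells 2.41% and 1.26%. The median endocrine cell there held 2671 and 1187 UMIs, and the median ductal cell 5590 and 2768.

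Between both treatments, Vcam1 in ductal cells was lower in i4F than in caerulein by -2.52 ± 0.43 on the log2 scale, which missed the threshold (edgeR adjusted p = 0.0542). DESeq2 called this pair. So did edgeR without TMM, without the filter, without cells of high UMIs, with the replicate number as a term, and without i4F 1 or i4F 3. It was not called with only cells of at least 500 genes or without cells carrying Ptprc. Nor was it with the library series as a term, with only the groups compared, or without i4F 2. With either caerulein mouse left out it did not hold either, in fits that leave a lone mouse in that group. Of the 40 pairs of this comparison, edgeR called 0, where 0.402% of all gene-by-class pairs were called; 12 had an unadjusted p under 0.05 and DESeq2 called 5, against 15.7% and 4.68% of all pairs. Without i4F 3, 10 of 40 were called, 5 of them for Vcam1, where 9.58% of all gene-by-class pairs were called.

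Nectin2 in stellate cells was higher in caerulein than in WT by 1.24 ± 0.25 (adjusted p = 0.0254), where 9.99% of stellate genes were called higher. Icam1 there was at 41.5 and 51.8 CPM, below both WT mice, with a difference that was not called (-1.20 ± 0.92, adjusted p = 0.358). In macrophages Nectin2 was scarce: it stood at 9.22 and 14.9 CPM in WT (6 and 22 UMIs), at 7.67, 5.11 and 9.03 CPM in i4F and at 3.26 and 2.90 CPM in caerulein. The fall in caerulein was -1.94 ± 0.42 (adjusted p = 0.0446), where 3.42% of macrophage genes were called lower. The summed ductal markers in macrophages were at 146 and 92.2 CPM in WT and at 84.4 and 92.5 CPM in caerulein. Dendritic markers in the class were at 1275 and 912 CPM in WT, at 148, 120 and 1162 CPM in i4F and at 129 and 185 CPM in caerulein. The WT cluster Macrophages 2, with 56.8% and 31.8% of the macrophage UMIs of WT 1 and WT 2, held 2040 and 2250 CPM of them. Their part in the Nectin2 values was not tested. With cells of high UMI number left out the adjusted p was 0.0501, as it also was for Nectin2 over all cells, described below, where keeping only cells with at least 500 genes gave 0.0517.

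Pvr in ductal cells stood at 252 and 160 CPM in WT and at 50.8 and 77.5 CPM in caerulein, with no overlap and a difference of -1.53 ± 0.44 that edgeR did not call (adjusted p = 0.0812) and DESeq2 did. In acinar cells Nectin2 was at 123 and 148 CPM in caerulein, above both WT mice (1.06 ± 0.30, adjusted p = 0.104). Ductal markers in these cells summed to 12788 and 14546 CPM in caerulein, against 2640 and 1795 CPM in WT. Their acinar markers summed to 9686 and 7510 CPM in caerulein, against 75299 and 96636 CPM in WT. The part of these in the Nectin2 values was not tested.

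Over all cells, Cd48 stood at 12.4 and 14.0 CPM in WT, at 21.9, 18.4 and 33.7 CPM in i4F and at 66.7 and 60.2 CPM in caerulein. The difference of caerulein from WT was 2.66 ± 0.34 (adjusted p = 0.0307), where 5.15% of genes were called higher. Nectin2 over all cells stood at 259.7 and 170.3 CPM in WT and at 57.0 and 66.0 CPM in caerulein, a change of -1.40 ± 0.33 (adjusted p = 0.0491), where 3.94% were called lower. Given WT levels in each class and their own class shares, the caerulein mice would have 71.7 and 63.1 CPM of Cd48 and 50.3 and 55.0 CPM of Nectin2. For i4F the same calculation gave 36.2, 42.8 and 45.8 CPM of Cd48, against the 21.9, 18.4 and 33.7 CPM measured, and 38.7, 38.2 and 113 CPM of Nectin2, against 74.3, 78.1 and 129.8 CPM measured. For Icam1 it gave 134, 132 and 129 CPM, against 59.9, 74.6 and 177 CPM measured. Over all cells edgeR called 0 of the 6 genes between i4F and WT with all mice, 3 had an unadjusted p under 0.05 and DESeq2 called 2, against 34.8% and 23.7% of all genes. Without i4F 3, Cd48 (0.99 ± 0.20, adjusted p = 0.00746), Icam1 (-1.06 ± 0.18, adjusted p = 0.00349), Icam2 (-2.61 ± 0.16, adjusted p = 2.59e-04) and Nectin2 (-1.10 ± 0.19, adjusted p = 0.00372) were called by edgeR. In the fits without i4F 3, 34.8% of all gene-by-class pairs were called. In non-immune cells 0 of the 6 genes were called in caerulein by edgeR, where 0.0728% of genes were called; 4 had an unadjusted p under 0.05 and DESeq2 called 3, against 33.4% and 20.7% of all genes.

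Within the macrophage class, Icam1 differed between clusters. The i4F cluster Macrophages 2 had 1094, 716 and 187 CPM of Icam1, the last from 5 UMIs in 15 cells, and the caerulein cluster Macrophages 3 had 1578 and 691 CPM. The other macrophage clusters lay between 92.0 and 354 CPM. Both of these clusters carried neutrophil markers, at 90100, 137000 and 274000 CPM in i4F and at 51100 and 54700 CPM in caerulein, against 11.6 to 1740 CPM in the others. They held 1.65%, 3.12% and 1.73% of the macrophage UMIs in i4F, and 1.02% and 0.672% in caerulein. Cd48 in them was at 0 to 28.8 CPM, against 78.7 to 298 CPM in the other macrophage clusters.

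Among the receptors, Cd226, Cd96 and Itgal had their highest levels in the NK/T class, which was compared between i4F and WT only. Cd2, the receptor of CD48, had 432 and 471 CPM in WT and 448, 492 and 443 CPM in i4F. Itgal, the alpha chain of LFA-1, had 175 and 103 CPM in WT and 97.9, 49.6 and 69.2 CPM in i4F, and Cd226, which encodes DNAM-1, had 87.6 and 59.9 CPM in WT and 46.4, 19.8 and 36.8 CPM in i4F. Both lay lower in each i4F mouse, and neither was called (adjusted p = 0.341 and 0.345). Of 5 integrin subunits tested there 0 were called by edgeR, and 3 had an unadjusted p under 0.05; of 2 receptors of PVR and NECTIN2 0 were called, and 1 had such a p, as did 14.3% of all genes tested in the class. NK-cell markers moved with these genes: they summed to 5523 and 2996 CPM in the NK/T class of WT and to 958, 539 and 925 CPM in i4F, while T-cell markers were at 2562 and 2752 CPM and at 2432, 2544 and 3508 CPM. Their part in the receptor values was not tested. In macrophages Itgam, the alpha chain of Mac-1, had 120 and 70.5 CPM in WT and 525, 748 and 138 CPM in i4F (2.44 ± 0.67, adjusted p = 0.147). Of 7 integrin subunits tested there edgeR called 0 in i4F and 2 had an unadjusted p under 0.05, where 0.00828% of all macrophage genes were called and 19.9% had such a p. Neutrophil markers in the class were at 745 and 84.8 CPM in WT and at 1681, 5920 and 4746 CPM in i4F, and their part in the Itgam values was not tested.

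The genes of the surrounding pathway were read from fixed lists. Of 17 NF-kB target genes, all tested in stellate cells, 4 rose in i4F (Cxcl2, Nfkb2, Sod2 and Traf1) and 1 in caerulein (Cxcl2), with none lower; their median log2 fold change was 0.53 in i4F and 0.03 in caerulein, against 0.02 and -0.04 for all genes. Of all stellate genes, 12.0% were called higher in i4F and 9.99% in caerulein. Cxcl2, a neutrophil chemokine, rose by 2.25 ± 0.58 and 2.34 ± 0.61 (adjusted p = 0.0393 and 0.0438). Sod2, a mitochondrial superoxide dismutase, rose in i4F by 1.58 ± 0.39 (adjusted p = 0.0361). Beside the macrophage markers given above, 5 markers of all leukocytes summed in stellate cells to 4.68 and 11.8 CPM in WT, to 81.2, 87.8 and 104 CPM in i4F and to 291 and 182 CPM in caerulein, and their part in these values was not tested. In macrophages 2 of the 17 fell in caerulein, Cxcl10 (-2.36 ± 0.32, adjusted p = 0.0328) and Birc3 (-1.26 ± 0.23, adjusted p = 0.0369), where 3.42% of all macrophage genes were called lower. In caerulein 2 of the 17 rose in endothelial cells, Ccl2 (5.25 ± 0.94, adjusted p = 0.0167) and Cxcl2 (6.11 ± 0.96, adjusted p = 0.00943), where 3.54% of all genes were called higher; macrophage markers in these cells summed to 38.2 and 57.3 CPM in WT and to 7208 and 4999 CPM in caerulein. Over all cells 3 rose in caerulein (Nfkb2, Nfkbie and Tnfaip3), where 5.15% of all genes were called higher. In ductal and acinar cells edgeR called 0 of the 17 in both comparisons, with 10 and 7 in ductal and 12 and 14 in acinar cells at an unadjusted p under 0.05. Of all genes, 17.4% and 30.7% had such a p in ductal cells and 25.1% and 21.9% in acinar cells.

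Of 8 cytokine and receptor genes tested in stellate cells, 4 rose in i4F (Il1a, Il1b, Tnf and Tnfrsf1b) and 2 in caerulein (Il1b and Il1r1), beside the 12.0% and 9.99% of all stellate genes. Il1b, which macrophages secrete, rose by 6.97 ± 1.20 and 7.00 ± 1.23 (adjusted p = 0.0198 and 0.0192), beside the macrophage markers given above. In endothelial cells 1 of 8 rose in i4F (Tnf), where 0.810% of all genes were called. There 2 of 8 rose in caerulein (Il1b and Tnf), where 3.54% were called higher. Macrophage markers in endothelial cells were at 839, 682 and 196 CPM in i4F, beside the caerulein values given above, and their part was not tested. In macrophages 1 of 8 fell in caerulein (Tnf), where 3.42% of all genes were called lower. Of 5 integrin subunits, Itgam and Itgb2, both of leukocytes, rose in stellate cells in each comparison, and of 4 other SLAM family genes Cd84 rose in i4F, and Cd84 and Slamf9 in caerulein. In NK/T cells 2 of 7 genes of this list were called in i4F, where 1.51% of all genes were. Ifng, which encodes interferon gamma, fell by 2.52 on the log2 scale (SE 0.26, adjusted p = 0.00416), beside the lower NK-cell markers given above. Il1b, which passed the filter only through the i4F mice, rose (adjusted p = 0.0428), from 0 CPM in both WT mice to 129, 59.5 and 42.7 CPM in i4F. Macrophage markers in the NK/T class were at 0 and 59.9 CPM in WT and at 649, 337 and 166 CPM in i4F, and their part in the Il1b values was not tested.

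Among the other ICAM, nectin and nectin-like genes, of which 7 were tested in stellate cells, Cadm4 rose in both comparisons (adjusted p = 0.0258 and 0.0376), from 0 and 0.110 CPM in WT to 2.38, 1.55 and 0.742 CPM in i4F and 1.29 and 1.07 CPM in caerulein. Cadm4 too passed the filter only through the treated mice. Cadm3 fell in caerulein (-2.55 ± 0.31, adjusted p = 0.0121). Of all stellate genes, 12.0% and 9.99% were called higher, and 8.58% and 7.10% lower, in i4F and caerulein. The endothelial adhesion and selectin genes were also read in stellate cells. Of 13 tested, 4 fell in i4F (Cd34, Esam, Jam3 and Mcam), and 7 fell in caerulein (Cd34, Esam, F11r, Jam2, Mcam, Pecam1 and Podxl). Endothelial markers in these stellate sums also differed, at 176 and 210 CPM in WT and 23.4 to 111 CPM in the treated mice. Pecam1 and Esam are themselves among these markers, so the sum is not independent of the genes named. The part of the markers in these values was not tested. In endothelial cells 1 of 12 fell in i4F (Jam3), where 0.110% of all genes were called lower. In caerulein, with 0.564% of all genes called lower and 3.54% higher there, Jam3 fell and Selplg, a ligand of selectins on leukocytes, rose. The part of the macrophage markers in endothelial cells, given above, in the Selplg, Ccl2 and Cxcl2 values was not tested.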

How the data were processed

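Single-cell suspensions of 7 mouse pancreata were sequenced by the 10x 3′ method. The authors aligned reads to mm10 with Cell Ranger, removed cells with few genes or high mitochondrial share, and clustered each condition in Seurat. They also ran SoupX, and whether the tables were made before or after it is not given in the sources used here. The deposited tables hold whole-number UMI counts per gene and cell, and the authors' cluster names and library of each cell. The counts of every cell summed to its deposited total.

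Here the counts were summed per mouse and class (at least 20 cells) and tested with edgeR 4.0.16 (TMM, filterByExpr, quasi-likelihood, all groups in one fit, two-sided, Benjamini-Hochberg over all genes of the class, adjusted p under 0.05). SE is the log2 fold change over the square root of F. DESeq2 1.42.0 was an alternative. The fit was also run on simulated counts with known changes, as a check of the code only. No doublet caller was run; cells of over 3 times the median UMIs were left out as an alternative. Intervals cover counting error only. With 2 or 3 mice a group, single-value permutation tests could not pass the threshold and were not used.

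The genes and lists were chosen with earlier results of these data known. The rule for named genes took the 6 ligands in every class, list genes past the threshold or of at least 5 CPM, and for each ligand the 3 closest genes among those of at least 100 UMIs. Not every list gene past the threshold is named above for every class and comparison. A gene not listed in a table counted as 0; of 29 acinar markers 10 are listed in the tables used here. The result of 1 gene of the endothelial adhesion and selectin list is not reported here. Promoters are from RefSeq (3 of 6 genes matched: Icam1, Nectin2 and Cd48; the window of Cd48 lies before a later start within the gene and is not described). Mice of the same number did not deviate together, so the numbers do not pair them. The alternatives were no TMM, no filter, only the groups compared, a replicate block, the series of the library name, other choices of cells, and each mouse left out.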

Additional observations from a re-analysis of the deposited data

Results flagged for a closer look

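In several cases a ligand lay above WT in every treated mouse in 1 class and below WT in every treated mouse in another. The difference between the classes was not tested. The values are log2 fold changes by edgeR, and of those below an adjusted p of 0.05 was passed in i4F only by Nectin2 and Cd48 in stellate cells, and in caerulein only by Nectin2 in stellate cells and macrophages and by Vcam1 in ductal cells.

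In i4F, Nectin2 lay above WT in each mouse in acinar (1.46), stellate (1.65) and endothelial cells (0.30) and below it in macrophages (-0.74). Cd48 lay above WT in acinar (1.88) and stellate cells (3.09) and below it in macrophages (-0.81) and the B class (-0.96). The acinar Cd48 value rests on 0 and 1 UMIs in WT. Cd48 also lay above WT in each i4F mouse in ductal cells (2.34), which were left out here for their low counts, 4 UMIs in WT and 9 in i4F. Macrophage markers in acinar cells were at 22.2 and 102 CPM in WT and at 880, 481 and 235 CPM in i4F, and their part in the Cd48 value was not tested. Vcam1 lay below WT in acinar (-0.82) and above it in ductal cells (1.81). The acinar Vcam1 value rests on 4 and 6 UMIs in WT and on 14, 20 and 10 in i4F.

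In caerulein, Nectin2 lay above WT in acinar (1.06) and stellate cells (1.24) and below it in ductal cells (-0.69) and macrophages (-1.94). Icam1 lay above WT in acinar cells (0.92) and below it in ductal (-0.68), stellate (-1.20) and endothelial cells (-0.76) and in macrophages (-0.96). Pvr lay above WT in acinar cells (1.07) and below it in ductal (-1.53) and endothelial cells (-1.07). Vcam1 lay above WT in acinar (0.43) and ductal cells (4.33) and below it in macrophages (-0.92). Counts in the acinar cells of WT 1 and WT 2 were low, at 2 and 10 UMIs for Icam1, 7 and 6 for Pvr and 4 and 6 for Vcam1.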

How the results depend on the processing

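The numbers of pairs called depended on the fit. For i4F against WT, with 3 calls, DESeq2 gave 9, no filter on low counts 10, only the groups compared 0 and the library name series as a term 0. For caerulein against WT, with 6 calls, these gave 14, 14, 25 and 0. Of all pairs they called 13.3%, 6.38%, 0.188% and 0.115%, and 18.1%, 8.45%, 31.8% and 0.201%. For i4F against caerulein, with 0 calls, DESeq2 gave 5, no filter 6, no TMM 1, and leaving out cells of high UMIs 1. Of all pairs these called 4.68%, 3.00%, 0.479% and 0.503%. For i4F against WT, the fits without i4F 1, i4F 2 and i4F 3 gave 1, 0 and 20 calls. Of all pairs they called 0.489%, 0.0454% and 34.8%. For i4F against caerulein the same fits gave 1, 0 and 10 calls, where 0.108%, 0.00768% and 9.58% of all pairs were called. The 3 calls did not hold with either WT mouse left out, nor the 6 with any WT or caerulein mouse left out. Calls over all genes also became rarer there. Where a group was left with 1 mouse, that mouse is assumed to vary like the others.

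With the replicate number as a replicate block, the fits called 19, 21 and 5 pairs, including the 3 and the 6, against 29.8%, 27.3% and 4.86% of all gene-by-class pairs. The mice share only a number: deviations of same-numbered mice correlated at -0.58 to 0.15 over the classes. Since WT and caerulein were negatively correlated, the pairing was also crossed, as an alternative chosen after seeing the data, and called 24 pairs, against 33.0% of all. The direction of a difference in non-immune cells turned in 4 cases, none of which was called (adjusted p = 0.128 to 0.949 by edgeR). For Vcam1 in i4F against WT (0.24) it was -0.14 without TMM, -0.43 with the replicate block and -0.42 without i4F 3 (-0.42 to 0.50 over the mice left out), and for Pvr (-0.31) it was 0.052 without WT 1 (-0.61 to 0.052). The 9 called pairs kept their direction under each alternative run. Among the 7 classes tested, the class of the highest median CPM also held the highest share of cells with a UMI for 5 of 6 genes, with or without thinning to 500 UMIs. Of the 18 most similar genes, 11 remained with a pseudocount of 1 CPM. The causes were not tested.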
